A study of Rattus norvegicus with 12 samples.

Results

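The genes described here are those of the ion, bicarbonate, phosphate and metal carriers of the solute carrier (Slc) series in the rat uterus. Members were all genes with a probe set naming a single gene symbol that starts with Slc4a, Slc8a, Slc9a, Slc11a, Slc12a, Slc20a, Slc24a, Slc26a, Slc30a, Slc34a, Slc39a, Slc40a or Slc41a, with Slc26a4 left out. This gave 77 of the 14506 genes measured, each with 1 such probe set. All but Slc4a1ap (kanadaptin, a partner protein of an anion exchanger) belong to these carrier families, which leaves 76.

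Uterine RNA came from 12 young adult female Lewis rats, 3 in each of 4 groups, with 1 Affymetrix array per rat. All 12 rats, the controls included, had been ovariectomized, which removes the main source of ovarian hormone. The vehicle group received DMSO, the E2 group received 17β-estradiol at 4 µg/kg/d, the 3-MC group received 3-methylcholanthrene, a ligand of the aryl hydrocarbon receptor (AhR), at 15 mg/kg/d, and the E2+3-MC group received both. Dosing ran for 3 days and the uterus was taken 24 h after the last dose, so the values describe the whole organ at 1 time point.

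These carriers move small inorganic ions across membranes. Slc4 and Slc26 proteins carry bicarbonate and other anions, Slc9 proteins exchange sodium for protons and Slc12 proteins move chloride with sodium or potassium, and with carbonic anhydrases and the sodium pump they set cell pH, cell volume and the fluid that epithelia secrete. Slc8 and Slc24 proteins extrude calcium, Slc20 and Slc34 proteins take up phosphate, Slc30 (ZnT) proteins lower cytosolic zinc and Slc39 (ZIP) proteins raise it, Slc11 and Slc40 proteins carry iron into and out of cells, and Slc41 proteins carry magnesium. In the uterus, estrogen drives growth of the epithelium and fluid secretion into the lumen, in which ion carriers of the epithelium take part.

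Of the 77 genes, 50 passed the filter on dim signals, which left out the 30% of all genes with the lowest mean over the 12 arrays, and 27 did not. Levels are given as deposited intensities, in arbitrary units, always in the order rat 1, rat 2, rat 3. Differences are on the log2(intensity + 16) scale with their standard error (SE), folds come from the same scale and so understate the change of dim genes, and a gene is called where limma's Benjamini-Hochberg adjusted p, over the 10154 genes tested, was under 0.05. Probe sets differ in brightness, so no gene's level is set against that of another.

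The arrays had median intensities from 86.3 to 124. Vehicle rat 1 stood apart: the interquartile range of its log2 values was 2.70 against 1.87 to 2.35 on the other 11 arrays, and its summed adipocyte markers read 16287, while vehicle rats 2 and 3 read 2665 and 3651. Most counts of called genes and some single differences that rest on the vehicle group are therefore also given without it. Defining markers of the uterus passed the filter in all 3 layers: 19 of 19 measured markers of luminal and glandular epithelium, 12 of 12 of stroma and 11 of 11 of myometrial smooth muscle.

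In whole uterus, E2 moved a small number of these carriers far and most of them little. Against vehicle, 5 genes rose with E2: Slc9a4, Slc34a2, Slc4a7, Slc30a7 and Slc11a2, and 7 fell: Slc26a7, Slc39a10, Slc39a8, Slc12a7, Slc30a3, Slc26a8 and Slc30a2. These are 12 of the 50 tested (24%), against 18.1% of all genes tested, with 10% higher against 8.7% and 14% lower against 9.44%. The shares are near those of all genes. The median difference was 0.01 over the members and -0.11 over all genes. In an organ sampled whole, fewer cells of a type and less RNA per cell cannot be told apart.

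The number called moved with single rats and with the scaling of the arrays. It was 22 (15 higher, 7 lower) without vehicle rat 1, against 34.9% of all genes, and 7 (4 higher, 3 lower) without E2 rat 3, against 9.84%. Rescaling also raised it, with 14 higher and 8 lower (22 in all, against 38.4% of all genes) for quantile normalization and 11 higher and 6 lower (17 in all, against 23%) for median centring. All 12 genes named above were also called without vehicle rat 1 and after quantile normalization. Without vehicle rat 1 the 5 risers stood between 0.87 (Slc30a7) and 3.22 (Slc9a4) and the 7 fallers between -1.61 (Slc26a7) and -0.57 (Slc30a2), while the median of all genes was 0.07. Median centring kept 11 of the 12 and lost Slc30a3, and an offset of 64 lost Slc26a8, Slc30a2 and Slc30a3. Fitting only the groups compared kept 6 and lost Slc11a2, Slc12a7, Slc26a8, Slc30a2, Slc30a3 and Slc30a7, at adjusted p from 0.0706 to 0.195. Leaving out vehicle rat 1 added 10 genes, all higher with E2: Slc9a7, Slc12a2, Slc26a2, Slc30a4, Slc30a5, Slc39a1, Slc39a6, Slc39a7, Slc39a9 and Slc41a2. The 10 that quantile normalization added were Slc26a2, Slc30a5, Slc39a1, Slc39a2, Slc39a9, Slc39a11, Slc41a2, Slc4a11 and Slc9a7, which were higher with E2, and Slc30a1, which was lower.

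**Figure D1:**
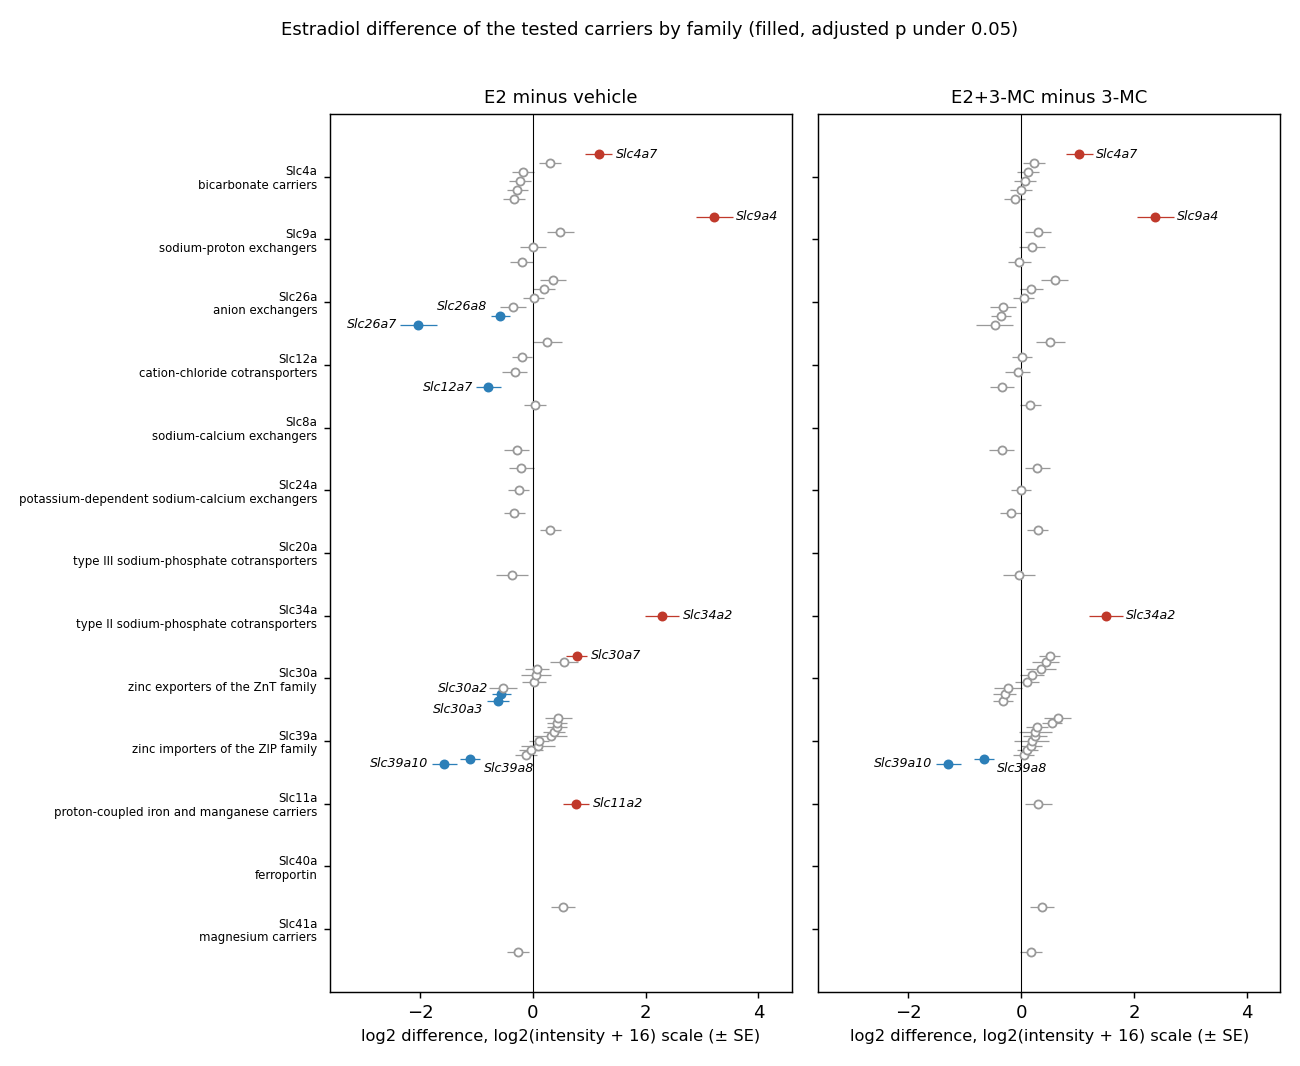
Each point is 1 tested gene and shows its log2 difference with E2 (horizontal axis, log2(intensity + 16) scale, ± SE) by family, without 3-MC on the left and in rats that all received 3-MC on the right; filled red and blue points are called higher and lower. Most points lie within 0.5 of 0, and of the genes called on both sides Slc9a4, at 3.22 and 2.38, is the highest and Slc39a10, at -1.57 and -1.29, the lowest.

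The study holds E2 in 2 arms, against vehicle and, in rats that all received 3-MC, against 3-MC. Slc9a4, Slc34a2 and Slc4a7 rose and Slc39a10 and Slc39a8 fell in both. RefSeq (rat build GRCr8) gave the promoter of 63 of the 77 genes and of 4 of these 5. The 250 bases before the transcript start of those 4 are shown because these genes were called the same way in both arms, which share no rat. Letters are written 5′ to 3′ on the strand of the gene, with matches to any searched motif in capitals. Slc9a4 lies at chr9:50320698-50320947 (plus strand), Slc34a2 at chr14:62143073-62143322 (minus strand), Slc39a10 at chr9:62405183-62405432 (plus strand) and Slc39a8 at chr2:226929941-226930190 (plus strand).
Slc9a4: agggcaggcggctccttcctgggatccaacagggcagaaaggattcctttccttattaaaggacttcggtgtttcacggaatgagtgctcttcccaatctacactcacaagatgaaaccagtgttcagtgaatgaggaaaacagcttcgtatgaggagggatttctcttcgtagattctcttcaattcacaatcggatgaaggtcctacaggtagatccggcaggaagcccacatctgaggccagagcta
Slc34a2: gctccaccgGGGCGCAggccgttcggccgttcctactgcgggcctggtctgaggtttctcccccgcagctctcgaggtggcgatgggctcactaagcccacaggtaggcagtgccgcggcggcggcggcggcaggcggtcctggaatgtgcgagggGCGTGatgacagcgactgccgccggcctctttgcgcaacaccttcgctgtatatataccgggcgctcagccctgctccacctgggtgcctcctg
Slc39a10: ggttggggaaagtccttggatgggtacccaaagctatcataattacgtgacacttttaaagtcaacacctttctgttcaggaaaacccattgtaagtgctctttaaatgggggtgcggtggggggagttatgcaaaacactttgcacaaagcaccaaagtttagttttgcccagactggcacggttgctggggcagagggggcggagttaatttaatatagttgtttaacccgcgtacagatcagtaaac
Slc39a8: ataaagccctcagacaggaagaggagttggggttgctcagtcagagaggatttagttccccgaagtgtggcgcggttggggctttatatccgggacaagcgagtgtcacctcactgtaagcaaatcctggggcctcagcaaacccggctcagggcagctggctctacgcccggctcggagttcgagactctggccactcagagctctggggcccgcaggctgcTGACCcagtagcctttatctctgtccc
Both strands were searched for the full estrogen response element GGTCANNNTGACC, its arm GGTCA, the AhR core GCGTG and the metal response element core as TGCGCNC or TGCACNC, where the arm lies within the full element. Slc9a4 and Slc39a10 held none of these letters in the window. Slc34a2 held GCGTG 94 bases before its start and the metal core, read as GGGCGCA on the opposite strand, 241 bases before it. Slc39a8 held the arm, read as TGACC on the opposite strand, 27 bases before its start. Of all 33469 promoters of this length, 0.0239% held the full element, 35.4% the arm, 25.9% GCGTG, 11.8% TGCGCNC and 10.3% TGCACNC, so the arm and the AhR core are common letters. A match describes letters only, and a window without one says nothing of the factor.

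Among the acid and bicarbonate carriers, Slc9a4 (NHE4, a sodium-proton exchanger of epithelia) showed the largest difference. Intensities of Slc9a4 were 16.4, 11.3 and 22.6 with vehicle, 347, 209.6 and 322 with E2, 60.6, 33.2 and 11 with 3-MC and 235, 151 and 328 with E2+3-MC. All 6 rats that received E2 lay above all 6 that did not. The log2 difference of Slc9a4 against vehicle was 3.22 ± 0.33 (9.31-fold higher, adjusted p = 2.41e-06). In the arm with 3-MC Slc9a4 differed by 2.38 ± 0.33 (5.22-fold higher, adjusted p = 1.23e-04). Its vehicle level is below the limit of the dim filter, and the gene passed it through the rats given E2. Both differences were called under every alternative setting that tested the gene, over a range of 2.12 to 4.06 against vehicle.

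Slc4a7 (NBCn1, an electroneutral sodium-bicarbonate cotransporter) also rose. Slc4a7 read 346, 247 and 232 in the vehicle rats, 715, 554 and 623 with E2, 307, 219 and 279 with 3-MC and 525, 405 and 823 with both. The E2 and vehicle rats did not overlap, nor did the E2+3-MC and 3-MC rats, and E2+3-MC rat 3 read higher than any E2 rat. Slc4a7 differed from vehicle by 1.17 ± 0.24 (2.24-fold higher, adjusted p = 0.00298) on the log2 scale. In the arm with 3-MC Slc4a7 differed by 1.03 ± 0.24 (2.04-fold higher, adjusted p = 0.0123). The second difference was 0.90 (adjusted p = 0.0885) without 3-MC rat 2 and 0.76 (adjusted p = 0.10) without E2+3-MC rat 3.

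The other tested members of both families were not called in either arm on the deposited scale. Against vehicle, the 5 other Slc4a genes spanned from -0.34 (Slc4a4) to 0.30 (Slc4a11), and the 3 other Slc9a genes from -0.20 (Slc9a8) to 0.49 (Slc9a7). Slc9a7, an exchanger of the Golgi, read 0.49 ± 0.24 (adjusted p = 0.166), and 0.76 (adjusted p = 0.00333) without vehicle rat 1. Carbonic anhydrases make the bicarbonate these proteins carry, though related proteins of the family, such as Car8 and Car11, lack this activity. Of 12 tested genes of the list, 1 rose with E2 and 5 fell. The median was -0.48 against -0.11 over all genes. Of all genes 8.7% rose and 9.44% fell. Car14, a membrane-bound form, rose by 1.80 ± 0.19 (adjusted p = 2.80e-06), and the cytosolic form of muscle and fat, Car3, was at -3.49 ± 1.15 (adjusted p = 0.0449). Car2 was at -1.83 ± 0.24 (adjusted p = 4.75e-05) and Car11 at -1.43 ± 0.20 (adjusted p = 9.2e-05). With 3-MC present Car3 stood on the other side of 0, at 1.91 ± 1.15 (adjusted p = 0.411), and the list had 1 gene higher and 2 lower with a median of 0.14 against 0.08. The 2 lower were Car2 at -0.98 ± 0.24 (adjusted p = 0.0164) and Car11 at -0.73 ± 0.20 (adjusted p = 0.0322). Of all genes 6.82% were higher and 1.39% lower there. The summed intensity of the list was 10269 in vehicle rat 1, 3196 and 3944 in vehicle rats 2 and 3, and 2115 to 2171 with E2. Car3 was at -2.67 (adjusted p = 0.0508) without vehicle rat 1 and lost its call, while Car14, Car2 and Car11 kept theirs, at 1.78, -1.56 and -1.29. The list then had 1 gene higher and 4 lower, and 34.9% of all genes were called in either direction. The adipocyte markers moved with Car3, since 6 of 8 tested were lower with E2 and 4 were lower and 1 higher without vehicle rat 1. With 3-MC present none was lower and 1 was higher, Adipoq (adiponectin, a hormone of fat cells) at 3.04 ± 0.73 (adjusted p = 0.0141), with a list median of 0.49. Their part in the result was not tested.

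Anion exchangers and chloride cotransporters went down or were not called. Slc26a7 (an anion exchanger of stomach and kidney epithelium) fell the most of all 77 genes with E2. Intensities of Slc26a7 were 322, 141 and 109 with vehicle, 40.5, 25.3 and 25.9 with E2, 149.6, 159.7 and 149 with 3-MC and 152, 128 and 59.4 with E2+3-MC. The 3 E2 rats lay below every other rat, and the E2+3-MC rats overlapped the 3-MC rats. The E2 mean of Slc26a7 is below the limit of the dim filter, and the gene passed it through the other groups. Against vehicle the log2 difference of Slc26a7 was -2.03 ± 0.32 (4.08-fold lower, adjusted p = 2.99e-04). Without vehicle rat 1, the highest vehicle value, it was -1.61 (adjusted p = 1.91e-05). In rats that all received 3-MC the difference was -0.47 ± 0.32 (adjusted p = 0.492) and was not called.

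Slc26a8, an anion exchanger best known from the testis, showed a smaller difference. Slc26a8 read 87.4, 87.4 and 87.9 in the vehicle rats, 63.2, 55.0 and 43.8 with E2, 101, 86.8 and 102 with 3-MC and 68.3, 79.8 and 68.4 with both. The groups with and without E2 did not overlap in either arm. Its E2 mean is below the limit of the dim filter, and the gene passed it through the other groups. The log2 difference of Slc26a8 against vehicle was -0.58 ± 0.18 (1.49-fold lower, adjusted p = 0.0311). With 3-MC the difference was -0.36 ± 0.18 (adjusted p = 0.279). The call against vehicle was lost without any 1 of vehicle rats 2 and 3, E2 rats 2 and 3, 3-MC rat 3 or E2+3-MC rat 1, at adjusted p from 0.0522 to 0.165. The 4 other tested Slc26a genes spanned from -0.35 (Slc26a1) to 0.35 (Slc26a2) against vehicle, and the sulfate carrier Slc26a2 was at 0.35 ± 0.23 and, with 3-MC, 0.59 ± 0.23 (adjusted p = 0.147). Slc26a2 was called higher in both arms without vehicle rat 1, at 0.62 and 0.59 (adjusted p = 0.0124 in each).

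Slc12a7 (KCC4, which moves potassium and chloride out of cells) fell with E2. Intensities of Slc12a7 were 206, 157 and 129 with vehicle, 119, 67.4 and 80.6 with E2, 165, 158 and 128 with 3-MC and 107, 108 and 132 with E2+3-MC. The E2 rats lay below the vehicle rats, while the E2+3-MC and 3-MC rats overlapped. Slc12a7 differed from vehicle by -0.79 ± 0.22 (1.73-fold lower, adjusted p = 0.0189) on the log2 scale. It was -0.64 (adjusted p = 0.103) without E2 rat 2 and -0.74 (adjusted p = 0.0821) without E2 rat 3. With 3-MC it was -0.34 ± 0.22 (adjusted p = 0.457). Slc12a2 (NKCC1, which brings sodium, potassium and chloride into secreting cells) was at 0.26 ± 0.25 and, with 3-MC, 0.52 ± 0.25 (adjusted p = 0.266), neither called. Slc12a2 was called higher without vehicle rat 1 in both arms, at 0.59 (adjusted p = 0.0161) and 0.52 (adjusted p = 0.0274). With 3-MC it was also called after quantile normalization (0.37, adjusted p = 0.0285) and with only the groups compared (adjusted p = 0.0239).

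The kinases and the pump that act on these carriers were counted from lists. The shares of all genes for these counts are 8.7% higher and 9.44% lower. Of 9 tested genes of the WNK, SPAK and OSR1 kinases and their partners, which switch Slc12 cotransport by phosphorylation, 1 rose with E2 and none fell: the steroid-regulated kinase gene Sgk1, at 1.00 ± 0.33 (adjusted p = 0.0422). Of 10 tested genes of the sodium pump and its FXYD regulators, 1 rose and 2 fell. The pump subunit gene Atp1b3 rose by 1.24 ± 0.20 (adjusted p = 3.76e-04) and the regulator gene Fxyd4 was at -1.61 ± 0.27 (adjusted p = 4.25e-04). The list medians were 0.07 and -0.27, against -0.11 over all genes. The kinase list without vehicle rat 1 had 3 genes higher and 1 lower (Sgk1 at 1.48) and the pump list 3 higher and 3 lower, with medians of 0.41 and 0.21 against 0.07. Without that rat 34.9% of all genes were called in either direction.

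Calcium exchangers were not called on the deposited scale. Against vehicle, the 2 tested Slc8a genes spanned from -0.28 (Slc8a1) to 0.04 (Slc8a2), where Slc8a1 (NCX1) is the exchanger of heart and smooth muscle, and the 3 tested Slc24a genes from -0.33 (Slc24a5) to -0.21 (Slc24a3). The widest 95% interval among these 5 was -0.75 to 0.19 (Slc8a1), so changes of that size are not shut out. Slc8a1 was called lower after quantile normalization with E2+3-MC, by -0.59 (adjusted p = 0.00718) against 3-MC and by -0.46 (adjusted p = 0.0268) against vehicle. Slc24a3 was called in E2+3-MC against vehicle without vehicle rat 1, at 0.50 (adjusted p = 0.0411). Of 13 tested calcium pumps, channels and store proteins, 2 rose and 1 fell with E2, near the 8.7% and 9.44% of all genes. The plasma membrane calcium pump gene Atp2b2 was at -2.05 ± 0.20 (adjusted p = 1.33e-06) and the epithelial calcium channel gene Trpv6 at 1.94 ± 0.25 (adjusted p = 4.11e-05). That list had 4 genes higher and 1 lower without vehicle rat 1, where 34.9% of all genes were called in either direction.

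Slc34a2 (NaPi-IIb, the sodium-phosphate cotransporter of the luminal face of lung and intestinal epithelium) was the second largest riser. Slc34a2 read 47.4, 61.2 and 55.7 in the vehicle rats, 419, 292 and 295 with E2, 74.4, 32.4 and 54.5 with 3-MC and 131, 124 and 326 with both. The rats given E2 lay above their controls in both arms, and the vehicle and 3-MC rats overlapped. Against vehicle the log2 difference of Slc34a2 was 2.30 ± 0.30 (4.91-fold higher, adjusted p = 4.39e-05). In the arm with 3-MC Slc34a2 differed by 1.51 ± 0.30 (2.84-fold higher, adjusted p = 0.00380). Like Slc9a4, its vehicle mean is below the limit of the dim filter, and it passed through the rats given E2. Of the E2+3-MC rats, rats 1 and 2 lay below every E2 rat and rat 3 among them.

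Slc20a1 and Slc20a2 (PiT1 and PiT2, which serve phosphate uptake in most cells) were not called, at 0.31 ± 0.19 and -0.37 ± 0.28. Intensities of Slc20a2 were 585, 233 and 204 with vehicle, 245, 199.8 and 256 with E2, 266, 207 and 258 with 3-MC and 229, 229 and 249.6 with E2+3-MC. Vehicle rat 1 read above every other rat, and the rest overlapped. Of 5 tested genes of phosphate handling, 1 rose and none fell with E2, against 8.7% and 9.44% of all genes. The riser was Alpl, the tissue-nonspecific alkaline phosphatase, at 1.26 ± 0.26 (adjusted p = 0.00248). With vehicle rat 1 left out, 3 of the 5 were higher, and 34.9% of all genes were called in either direction.

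Epithelial markers moved with these risers. Of 19 tested markers of luminal and glandular epithelium, 13 were called higher and 1 lower with E2 (8.7% and 9.44% of all genes), and 11 and 1 with 3-MC present (6.82% and 1.39%). Without vehicle rat 1, 16 were higher and 1 lower against vehicle, and 34.9% of all genes were called in either direction. Their summed intensity was 6510 to 13414 with vehicle, 21036 to 26137 with E2, 5978 to 7872 with 3-MC and 13185 to 23045 with both. Vehicle rat 1, at 13414, read above the lowest E2+3-MC rat. None of the markers was at 0 in any rat, and their part in the rise of Slc9a4, Slc34a2 and Slc4a7 was not tested.

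**Figure D2:**
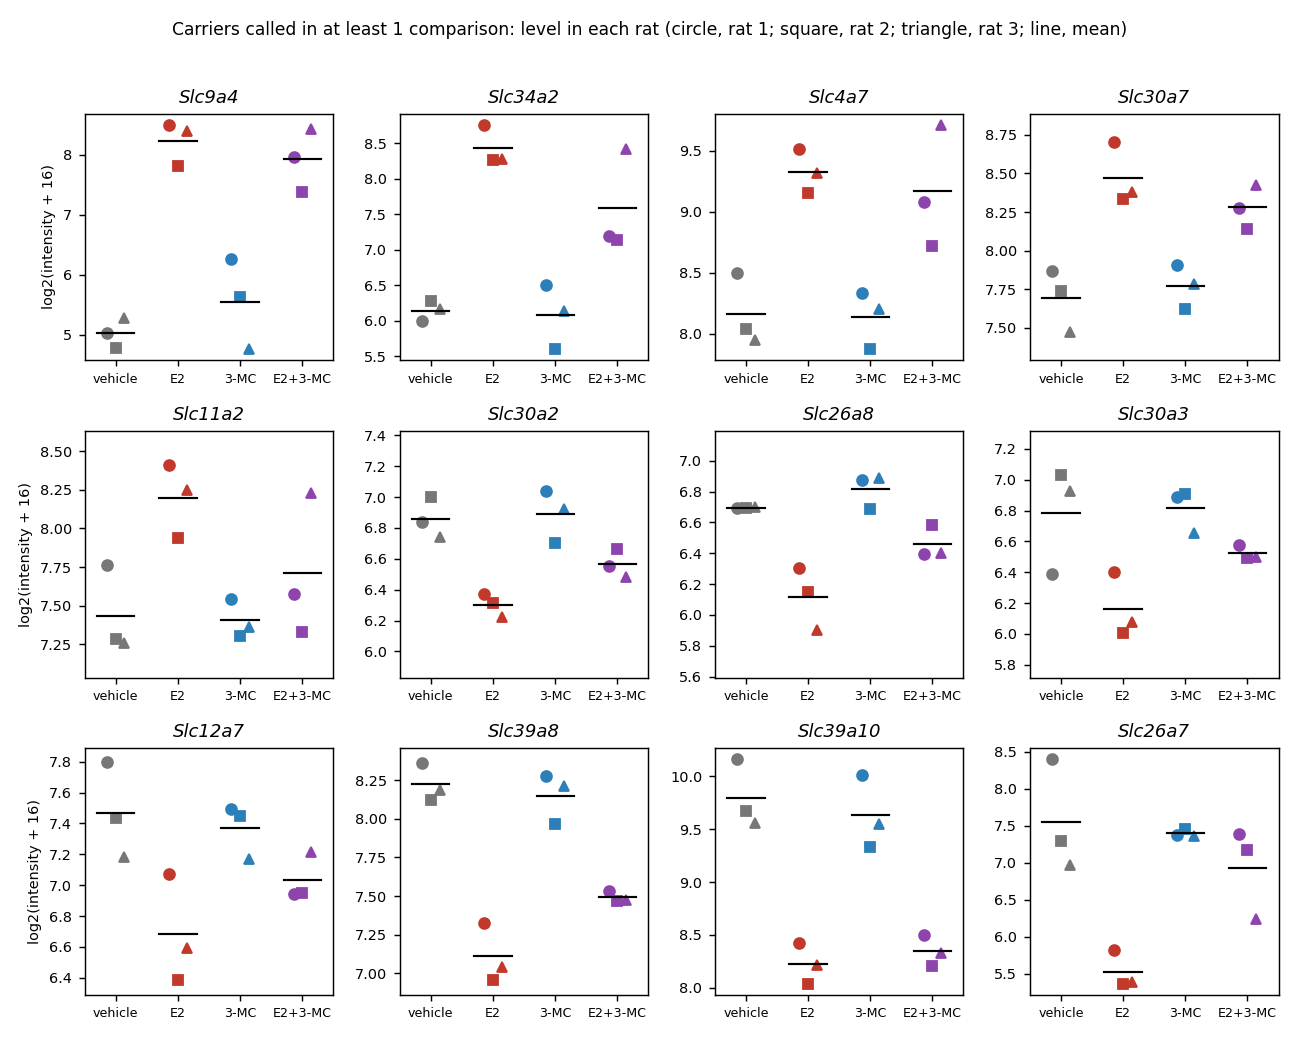
Each panel is 1 of the 12 genes called in at least 1 comparison, with the level of every rat as log2(intensity + 16) on its own vertical scale, by treatment group; marks give the rat number and lines the group mean. The E2 marks stand clear of the vehicle marks in every panel but Slc30a3, and those of Slc26a7, Slc26a8, Slc30a2 and Slc39a8 stand clear of all 3 other groups.

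Among zinc importers, the ZIP proteins, 2 of 11 tested genes fell with E2 and none rose, where 9.44% of all genes fell and 8.7% rose, too few to describe the family. Slc39a10 (ZIP10, an importer of the plasma membrane) was lower in every rat given E2. Slc39a10 read 1131, 799 and 737 in the vehicle rats, 328, 247 and 281 with E2, 1019, 627 and 735 with 3-MC and 345, 279 and 305 with both. The 6 rats given E2 read 247 to 345 and the 6 others 627 to 1131. The log2 difference of Slc39a10 against vehicle was -1.57 ± 0.22 (2.97-fold lower, adjusted p = 8.32e-05). In the arm with 3-MC Slc39a10 differed by -1.29 ± 0.22 (2.44-fold lower, adjusted p = 9.07e-04). Without vehicle rat 1 the first was -1.39 (adjusted p = 7.47e-06), and both were called under every alternative.

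Slc39a8 (ZIP8, which carries zinc and manganese together with bicarbonate) fell too. Intensities of Slc39a8 were 313, 262 and 276 with vehicle, 145, 108 and 116 with E2, 294, 234 and 280.2 with 3-MC and 169, 161 and 162 with E2+3-MC. The groups with and without E2 did not overlap in either arm, and the E2+3-MC rats lay between the E2 rats and the others. Slc39a8 differed from vehicle by -1.11 ± 0.18 (2.16-fold lower, adjusted p = 3.26e-04) on the log2 scale. In the arm with 3-MC Slc39a8 differed by -0.66 ± 0.18 (1.58-fold lower, adjusted p = 0.0284). The second call was lost when any 1 of the 3-MC or E2+3-MC rats was left out, at adjusted p from 0.0509 to 0.138, with differences from -0.60 to -0.75. The 9 other tested Slc39a genes were not called and spanned from -0.12 (Slc39a3) to 0.45 (Slc39a1) against vehicle. Slc39a1 and Slc39a11 (ZIP1 and ZIP11) read 0.65 ± 0.24 (adjusted p = 0.117) and 0.56 ± 0.18 (adjusted p = 0.0658) with 3-MC present, and both were called there after quantile normalization (adjusted p = 0.00931 and 0.00339) and with vehicle rat 1 left out (adjusted p = 0.00413 and 0.0109).

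Markers of vessels and blood moved, in the comparison with vehicle, with the genes that fell. Of 10 tested endothelial markers 8 were lower with E2 (9.44% of all genes), also without vehicle rat 1 (34.9% of all genes called in either direction), and none was called with 3-MC present. Their summed intensity was 3359 to 6463 with vehicle, 2393 to 2721 with E2, 3382 to 3784 with 3-MC and 2851 to 3001 with both, so rats given E2 lay below their controls in each arm. Of 5 tested erythroid markers 3 were lower with E2 and none was called with 3-MC present, at sums of 4386 to 8865 with vehicle, 1030 to 2696 with E2, 2979 to 3688 with 3-MC and 1754 to 4196 with both. Without vehicle rat 1, 3 of these 5 were lower with E2 as well. No marker of either list was at 0 in any rat, and their part in the fall of Slc39a10, Slc39a8, Slc26a7 and the other fallers was not tested.

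Among zinc exporters, the ZnT proteins, 1 of 8 tested genes rose and 2 fell with E2, against 8.7% and 9.44% of all genes. Slc30a7 (ZnT7, which loads zinc into the Golgi) rose. Slc30a7 read 218, 198 and 162 in the vehicle rats, 401, 307 and 317 with E2, 224, 181 and 204 with 3-MC and 294, 265 and 328 with both. The rats given E2 lay above their controls in both arms. Against vehicle the log2 difference of Slc30a7 was 0.78 ± 0.19 (1.71-fold higher, adjusted p = 0.00812). With 3-MC it was 0.51 ± 0.19 (adjusted p = 0.119) and not called. It was called there after quantile normalization (0.41, adjusted p = 0.00562), after median centring (0.50, adjusted p = 0.0272), with only the groups compared (adjusted p = 0.0209) and when vehicle rat 1 was left out (adjusted p = 0.0232). The call against vehicle was lost with only the groups compared (adjusted p = 0.0706). Slc30a5 (ZnT5, of the same secretory compartments) was at 0.56 ± 0.24 (adjusted p = 0.124).

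Slc30a2 (ZnT2, a vesicular exporter known from mammary gland) and Slc30a3 (ZnT3, known from synaptic vesicles) fell with E2. Intensities of Slc30a2 were 98.6, 112 and 91.1 with vehicle, 66.9, 63.5 and 58.6 with E2, 115, 88.0 and 105 with 3-MC and 77.9, 85.5 and 73.3 with E2+3-MC. The log2 difference of Slc30a2 against vehicle was -0.56 ± 0.17 (1.47-fold lower, adjusted p = 0.0349). Slc30a3 read 67.9, 114 and 105 in the vehicle rats, 68.7, 48.3 and 51.5 with E2, 102, 104 and 84.8 with 3-MC and 79.5, 74.0 and 74.6 with both. Slc30a3 differed from vehicle by -0.62 ± 0.20 (1.54-fold lower, adjusted p = 0.0408) on the log2 scale. For Slc30a2 the groups with and without E2 did not overlap in either arm. For Slc30a3 vehicle rat 1 read 67.9, within the E2 rats, and without it the difference was -0.81 (adjusted p = 7.45e-04). The E2 mean of each gene is below the limit of the dim filter, and each passed it through the other groups. Both calls lie near the threshold. That of Slc30a2 was lost without any 1 of vehicle rat 2, E2 rats 2 and 3, 3-MC rat 3 or E2+3-MC rat 1 (adjusted p from 0.0581 to 0.134), and that of Slc30a3 without any 1 rat other than vehicle rat 1 or E2 rat 1 (adjusted p from 0.0518 to 0.155). With 3-MC they were -0.32 ± 0.17 and -0.29 ± 0.20, neither called. The surface exporter Slc30a1 (ZnT1) was at -0.54 ± 0.25 (adjusted p = 0.144) and, with quantile-normalized arrays, was called at -0.43 ± 0.12 (adjusted p = 0.0112).

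Metallothioneins, the proteins that bind zinc inside cells, fell with E2. Of 5 tested genes of metallothioneins and zinc handling, 3 (Mt1, Mt2A and Mt3) fell and none rose, in each arm. Of all genes 9.44% fell against vehicle and 1.39% with 3-MC present. With vehicle rat 1 left out, the same 3 fell against vehicle, with a list median of -2.26. Then 34.9% of all genes were called in either direction. Mt2A was at -3.13 ± 0.27 (adjusted p = 2.75e-07) and Mt3 at -2.93 ± 0.29 (adjusted p = 1.60e-06) against vehicle, and at -1.58 ± 0.27 and -2.13 ± 0.29 with 3-MC present. The summed intensity of the list was 10293 to 19436 with vehicle, 2078 to 2699 with E2, 9824 to 11978 with 3-MC and 3696 to 5775 with both, with no overlap between rats given E2 and rats not given it. The metal core in either form was in 9 of 21 promoters of the zinc carriers (42.9%, at a median G+C of 64.4%), against 20.6% of all promoters (51.2%). Of the promoters with G+C at or above that median, a set richer in G+C than the zinc carriers (median 69.6%), 43.8% held it.

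Iron, copper and magnesium genes gave single calls. Slc11a2 (DMT1, which imports ferrous iron) rose with E2. Intensities of Slc11a2 were 202, 139.6 and 137 with vehicle, 324, 229 and 288 with E2, 171, 142 and 149 with 3-MC and 175, 145 and 284 with E2+3-MC. The E2 rats lay above the vehicle rats, while E2+3-MC rat 2 read among the 3-MC rats. Against vehicle the log2 difference of Slc11a2 was 0.76 ± 0.23 (1.70-fold higher, adjusted p = 0.0317). The call was lost without any 1 of vehicle rats 2 and 3 or E2 rats 1 and 3 (adjusted p from 0.0726 to 0.108), and with 3-MC the difference was 0.31 ± 0.23 (adjusted p = 0.548). Of 20 tested genes of iron handling, 1 rose and none fell, against 8.7% and 9.44% of all genes. The riser was Lcn2, which binds iron-carrying siderophores, at 3.62 ± 0.40 (adjusted p = 7.06e-06). When vehicle rat 1 was left out, 5 iron genes were higher and 1 lower, with Lcn2 at 4.23, and 34.9% of all genes were called in either direction.

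Of 7 tested copper genes 1 rose, the copper importer gene Slc31a1, at 0.98 ± 0.24 (adjusted p = 0.00977), and 2 were higher without vehicle rat 1. The shares of all genes for the counts here are 8.7% higher and 9.44% lower. Without that rat 34.9% were called in either direction. The magnesium carriers Slc41a2 and Slc41a3 read 0.54 ± 0.21 (adjusted p = 0.0814) and -0.27 ± 0.20 (adjusted p = 0.382). Slc41a2 was called higher after quantile normalization (0.70, adjusted p = 0.00281) and with vehicle rat 1 left out (0.63, adjusted p = 0.0151). Of 6 tested magnesium channel and CNNM genes 1 fell, Cnnm2, at -0.67 ± 0.22 (adjusted p = 0.0402). Cnnm2 was at -0.47 (adjusted p = 0.0544) and not called without vehicle rat 1, and 1 gene of its list was then higher.

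The 27 genes left out as dim were Slc4a1, Slc4a5, Slc4a8, Slc4a9, Slc4a10, Slc8a3, Slc9a2, Slc9a3, Slc9a5, Slc11a1, Slc12a1, Slc12a3, Slc12a5, Slc12a8, Slc24a2, Slc24a4, Slc26a3, Slc26a5, Slc26a9, Slc30a8, Slc30a10, Slc34a1, Slc34a3, Slc39a4, Slc39a5, Slc39a12 and Slc40a1. Many are known from kidney, intestine, red cell or brain, such as the kidney cotransporters Slc12a1, Slc12a3 and Slc34a1. For 3 of them, Slc11a1, Slc39a4 and Slc12a8, the rats did not overlap the same way with E2 in both arms, against 7.49% of the 4352 dim genes (326).

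Slc11a1 (NRAMP1, which pumps metal out of the phagosome of macrophages) was the clearest. Slc11a1 read 40.6, 42.5 and 29.0 in the vehicle rats, 123, 73.7 and 72.6 with E2, 31.1, 44.5 and 59.5 with 3-MC and 109, 98.6 and 91.1 with both. Every rat given E2 read above every rat not given it. Fitted with no filter on dim genes, its difference was 0.96 ± 0.21 (adjusted p = 0.00688) against vehicle and 0.95 ± 0.21 (adjusted p = 0.0143) with 3-MC. Macrophage markers moved with it: 6 of 13 tested rose (8.7% of all genes) and none fell with E2, and 7 rose with 3-MC present (6.82% of all genes). Their sum was 2553 to 8095 with vehicle, 6599 to 9276 with E2, 2704 to 4894 with 3-MC and 7201 to 8721 with both, and none was at 0. Vehicle rat 1 had the highest marker sum of its group, 8095, while its Slc11a1 intensity of 40.6 lay between those of the other vehicle rats. Without it all 13 tested markers were called higher with E2, and 34.9% of all genes were called in either direction. Some neutrophil markers moved with it too, with 3 of 4 tested higher in each arm (8.7% and 6.82% of all genes). The other, Mpo, was lower against vehicle (9.44% of all genes), at -1.17 ± 0.34 (adjusted p = 0.0241). Without vehicle rat 1 the list also had 3 higher and 1 lower. Another 4 measured markers were dim and not tested. Of these, Elane, Ngp and Camp lay from -0.22 to 0.18 over the 2 arms, and Cxcr2 at 0.56 and 1.03. The sum of all 8 was 327 to 611 with vehicle, 729 to 1174 with E2, 334 to 382 with 3-MC and 476 to 1087 with both, with no overlap in either arm and no marker at 0. The part of both lists in the result was not tested.

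Slc39a4 (ZIP4, the zinc importer of intestinal absorption) and Slc12a8 differed less. Intensities of Slc39a4 were 53.5, 70.7 and 58.4 with vehicle, 86.6, 79.3 and 73.8 with E2, 71.7, 58.0 and 55.9 with 3-MC and 78.4, 84.8 and 77.4 with E2+3-MC. Slc12a8 read 42.9, 50.3 and 48.6 in the vehicle rats, 32.6, 25.7 and 32.9 with E2, 49.5, 43.4 and 44.3 with 3-MC and 34.8, 36.1 and 42.6 with both. With E2, Slc39a4 read higher and Slc12a8 lower, without overlap in either arm. Fitted with no filter on dim genes, neither was called, at adjusted p = 0.181 and 0.359 for Slc39a4 and 0.0579 and 0.615 for Slc12a8.

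**Figure D3:**
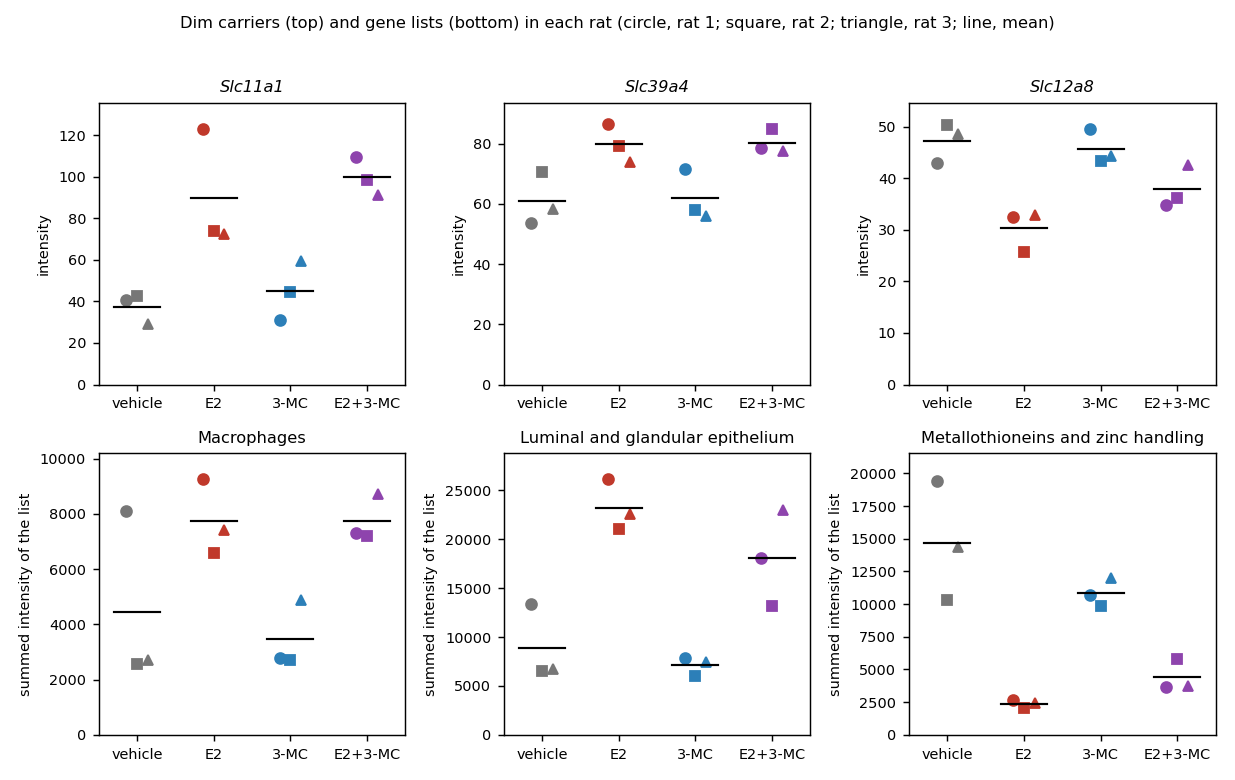
The top panels show the intensity of 3 dim genes and the bottom panels the summed intensity of 3 gene lists, in each rat by treatment group, with lines at the group means and axes from 0. Slc11a1 is at 72.6 or more with E2 and at 59.5 or less without it, while the macrophage sum of vehicle rat 1, 8095, lies among the rats given E2, and the metallothionein list is at 5775 or less in every rat given E2.

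The second arm, E2+3-MC against 3-MC, asks whether the E2 differences are there in other rats that all received 3-MC. In it 5 of 50 genes (10%) were called, against 8.21% of all genes tested, with 3 higher (6%) against 6.82% and 2 lower (4%) against 1.39%. The median was 0.17 over the members and 0.08 over all genes. The 5 called were Slc9a4, Slc34a2, Slc4a7, Slc39a10 and Slc39a8, each called the same way in the first arm, against 7.29% of all genes called the same way in both. The number was 10 (against 21.4% of all genes) without vehicle rat 1, which enters only the shared estimate of the spread, 14 (8 higher and 6 lower, against 26.1%) with quantile normalization, and 7 (5 higher and 2 lower, against 11.4%) with median centring. It was 3 without 3-MC rat 2 or without E2+3-MC rat 3, against 4.06% and 4.41% of all genes. Quantile normalization added Slc12a2, Slc26a2, Slc30a7, Slc39a1 and Slc39a11, which were higher, and Slc8a1, Slc26a8, Slc30a1 and Slc30a2, which were lower.

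The 2 arms share no rat. Over the 50 genes the differences had the same sign in 42 (84%), against 75.6% of all genes, with Pearson's r of 0.94 and Spearman's rho of 0.90, against 0.92 and 0.85 over all genes. These describe genes within 12 arrays, and genes are not independent replicates. All 12 genes called against vehicle had a smaller difference with 3-MC, as had 1621 of the 1842 genes called overall. They were chosen by their call in the first arm, so this is no test of a change.

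**Figure D4:**
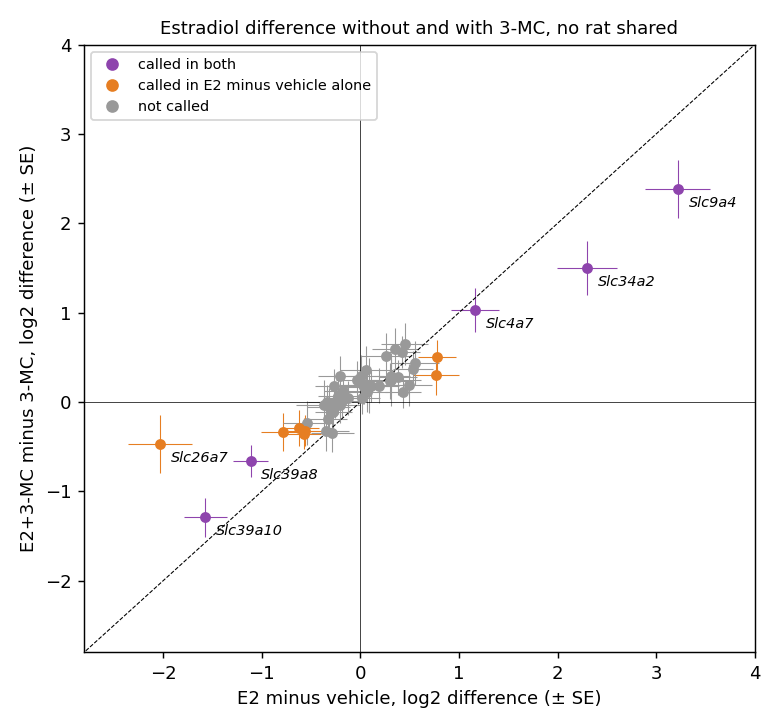
Each point is 1 of the 50 tested genes, with its E2 difference without 3-MC on the horizontal and with 3-MC on the vertical axis (log2(intensity + 16) scale, ± SE), and the dashed line marks equal differences. The 5 purple points were called in both arms, and Slc26a7, at -2.03 and -0.47, lies farthest from the line.

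Against vehicle, E2+3-MC gave the same 5 calls: Slc9a4 at 2.91 ± 0.33, Slc34a2 at 1.44 ± 0.30, Slc4a7 at 1.01 ± 0.24, Slc39a10 at -1.45 ± 0.22 and Slc39a8 at -0.73 ± 0.18. These are 10% of the members against 7.84% of all genes, 6% against 6.06% higher and 4% against 1.78% lower. This comparison shares the vehicle rats with E2 against vehicle and the E2+3-MC rats with the second arm, so it is no separate support. The number was 16 (14 higher, 2 lower, against 26.6% of all genes) without vehicle rat 1, 13 (6 higher and 7 lower, against 26.1%) with quantile normalization, 7 (5 higher and 2 lower, against 10.5%) with median centring, and 3 (against 4.38%) without E2+3-MC rat 3. With only these 2 groups fitted, Slc34a2, Slc4a7 and Slc39a8 lost their calls. Slc4a7 lost its call without any 1 of vehicle rats 2 and 3 or E2+3-MC rat 3 (adjusted p from 0.0509 to 0.117), and Slc39a8 without E2+3-MC rat 1 or rat 3 (adjusted p = 0.0622 and 0.0674).

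3-MC alone moved none of these genes past the threshold: 0 of 50 members and 0% of all genes were called by limma against vehicle. At an unadjusted p under 0.05 there were 0 members and 82 of all genes (0.808%), a smaller share than the threshold itself. The spread used in the test takes in vehicle rat 1, and without that rat 0% of all genes were called too. The largest differences were in Slc9a4 at 0.52 ± 0.33, with a 95% interval from -0.17 to 1.22, Slc4a4 at 0.31 ± 0.20 and Slc20a2 at -0.31 ± 0.28. For Slc9a4, 3-MC rats 1 and 2 (60.6 and 33.2) read above the vehicle rats and 3-MC rat 3 (11) below them. Without vehicle rat 1 the sign for Slc20a2 turned, to 0.14. Each interval leaves room for changes that 3 rats a group could not show.

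Adding 3-MC to E2 also gave no call, with 0 of 50 members and 0% of all genes past the threshold and 5 members and 937 genes (9.23%) at an unadjusted p under 0.05. Slc26a7 was higher with both agents than with E2 alone, by 1.40 ± 0.32 (adjusted p = 0.371), and the E2+3-MC rats (59.4 to 152) lay above the E2 rats (25.3 to 40.5). Without vehicle rat 1, which enters only the shared spread, the difference was the same and its adjusted p 0.00278. Without E2+3-MC rat 3, the lowest of its group, it was 1.75 (adjusted p = 0.0391). Of all genes 1.1% and 0.177% were called in these 2 fits. Slc34a2 was at -0.85 ± 0.30 (adjusted p = 0.496). Slc4a4 (NBCe1, an electrogenic sodium-bicarbonate cotransporter) was at 0.64 ± 0.20 (adjusted p = 0.488). Intensities of Slc4a4 were 226, 239 and 176 with vehicle, 204, 135 and 161 with E2, 274, 233 and 298 with 3-MC and 234, 265 and 305 with E2+3-MC. The E2+3-MC rats lay above the E2 rats and overlapped both other groups.

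The interaction, the difference between the E2 effect with and without 3-MC, called 0 of 50 members and 0% of all genes, with 1 member and 298 genes (2.93%) at an unadjusted p under 0.05. It was 1.56 ± 0.46 for Slc26a7 (adjusted p = 0.977), with a 95% interval from 0.60 to 2.53, -0.84 ± 0.46 for Slc9a4 (from -1.82 to 0.14) and -0.79 ± 0.43 for Slc34a2 (from -1.69 to 0.11). The median was 0.17 over the members and 0.19 over all genes, and quantile normalization brought the latter to -6.17e-04. Calls in one arm and not in the other, as for Slc26a7, Slc26a8, Slc12a7, Slc30a7, Slc30a2, Slc30a3 and Slc11a2, are therefore not shown to differ between the arms by this test.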

How the data were processed

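Uterine RNA of 12 rats was measured on 12 Affymetrix arrays, 1 per rat, and the labels state that the 3 arrays of a group are 3 rats. The deposited values are linear probe set intensities, which the authors computed with PLIER in Affymetrix Expression Console (per the submitters' processing notes). For software versions, settings and any normalization between arrays, nothing is stated in the sources used here. The scale could move every difference, so rescaled alternatives were run.

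Of 29214 probe sets, 15310 named 1 gene symbol in the platform annotation, 323 named several and 13581 had no gene listed. These gave 14506 genes, with the probe set of highest mean log2 value kept for each. Symbols of 15303 of these probe sets and of all 77 members were in RefSeq GRCr8. Values were taken as log2(intensity + 16), and the 30% of genes with the lowest mean (below 6.44) were left out, leaving 10154.

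limma 3.58.1 in R 4.3.3 was fitted to all 12 arrays with 1 mean per group (8 residual and 8.92 prior degrees of freedom, trend and robust off). Tests were two-sided and p-values adjusted by Benjamini-Hochberg over 10154 genes for each of 6 comparisons. On simulated data for E2 against vehicle, over 10154 genes, 60 of 100 genes changed by 1 log2 unit and 98 of 100 changed by 2 were called. No other gene was changed there, and the noise was independent and normal with 1 spread per gene in all groups. The data differ, with 18.1% of genes called and 1 array that stands apart, so these shares need not hold for them. Precision is limited by the number of arrays, with a median SE of 0.21 for a difference over the members.

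The members, the gene lists and the tests were chosen with earlier results of these data known. Values in every rat are given for members called in any comparison and for the 3 with the largest difference in each comparison of 3-MC and in the interaction. Dim members are named with values where the rats do not overlap the same way with E2 in both arms. Up to 2 called genes are named per list, with more for carbonic anhydrases and metallothioneins. Alternatives were quantile normalization, median centring, other offsets (1 and 64), other filters, the mean of a gene's probe sets, only the groups compared, a replicate block, trend and robust fitting, and leaving out each rat. Quantile normalization without vehicle rat 1 was added after seeing the data.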

Additional observations from a re-analysis of the deposited data

How the results depend on the processing

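Groups of 3 rats and an unstated scale limit these results, and only Slc9a4 and Slc39a10 kept their calls in all 3 comparisons with E2 under every alternative that tested them. The counts of called members are given with the share of all genes called in brackets. In the order E2 minus vehicle, E2+3-MC minus 3-MC and E2+3-MC minus vehicle, the counts were 12 (18.1%), 5 (8.21%) and 5 (7.84%). They were 22 (38.4%), 14 (26.1%) and 13 (26.1%) after quantile normalization. When vehicle rat 1 was also left out, an alternative chosen after seeing the data, they were 28 (46%), 18 (34.1%) and 20 (32.9%). With the lowest 50% of genes left out they were 5 (16.3%), 3 (8.52%) and 3 (7.46%), of 33 members tested. This drops 7 of the 12 from the test (Slc9a4, Slc34a2, Slc26a7, Slc12a7, Slc26a8, Slc30a2 and Slc30a3). Fitted to only the groups of the comparison they were 6 (9.46%), 10 (22.4%) and 2 (2.92%), and E2+3-MC minus E2 gave 1 (1.42%), Slc26a7. The cause was not tested. Leaving out 1 rat at a time gave 7 to 22 (9.84% to 34.9%), 3 to 10 (4.06% to 21.4%) and 3 to 16 (4.38% to 26.6%). For E2+3-MC minus E2 it gave 0 to 1 (0% to 1.1%). The interaction could not be fitted with only the groups of a comparison. Median centring, the offsets, no filter, probe set means and trend with robust fitting kept all 3 counts within 1.5 times. Replicate numbers gave no clear pairing: over 18 same-number pairs of rats the correlation of deviations from group means ran from -0.27 to 0.24, with 8 over 0.1. The mean was 0.04 for pairs of the same number and -0.02 for pairs of other numbers. Rat 1 had the highest median intensity in every group, so these values do not settle whether rats of 1 number are linked. With the replicate number as a block the counts were 12 (25.1%), 6 (11.2%) and 7 (10.7%). With the block and quantile normalization they were 22 (37.6%), 14 (25.2%) and 13 (25.1%). Of 724 recomputed values of 31 named differences, 667 kept their direction and side of the threshold, 53 lost a call, 3 gained one (Slc26a7, E2+3-MC minus E2) and 1 turned, Slc20a2 with 3-MC minus vehicle, which ran from -0.58 to 0.14 when 1 rat was left out and was above 0 without vehicle rat 1.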
